A study of Drosophila melanogaster with 24 samples.

Results

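The comparison set a mix of S2 cells with S2-NDCterm cells against a mix of S2 cells with S2-NFull cells, in the absence of any cell line made to express the ligand Delta. S2 is a hemocyte-like cell line of Drosophila melanogaster. NDCterm and NFull are read here as lines carrying a truncated and a full-length form of the receptor Notch, because the labels do not spell the names out. The mix written S2/S2-NDCterm was represented by replicates 1 and 3. The mix written S2-NFull/S2 was represented by replicate 1, measured on a pair of arrays of the same title that were averaged on the log2 scale, and by replicate 3. These are 5 of the 24 arrays of the series, or 4 samples, 2 against 2.

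The series consists of 8 such mixes, each kept together for 45 minutes before RNA was taken, and the labels state that each replicate was pooled from 2 independent samples. Beside the 2 mixes above, the mix S2-NDCterm/S2-Dl (replicates 1 and 3), the mix S2-NFull/S2-Dl (replicate 2 alone) and the mix S2/S2 (replicates 1 to 3) are used below, where Dl stands for a line that expresses Delta. Signals in S2-NFull/S2-DlDI, S2/S2-Dl and S2/S2-DlDI are quoted in a few places, DlDI being a line whose Delta lacks the intracellular domain. All groups share the S2 background, and none of the labels used here gives the promoter or vector that drives a protein, or says whether a line is 1 clone. The titles spell the lines NdCterm, DI and DI-I, and the source field names epidermal tissue of late embryos, whereas the titles and the design text name S2 cells, which were followed. The RNA of both populations was extracted together, so that fewer cells of one population and less RNA per cell cannot be told apart in any value below.

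Notch is a transmembrane receptor whose intracellular domain is released after Delta or Serrate on a neighbouring cell binds it. The released domain joins the DNA-binding protein Su(H) and turns on target genes, of which the E(spl) complex of bHLH repressors and Bearded-family proteins is the best known. Signalling by the epidermal growth factor receptor (EGFR) and Ras, which meets Notch signalling in many fly tissues, has its own feedback inhibitors, among them the proteins encoded by aos and sty. Notch itself is not analysed here.

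Each array gave 1 signal per probe set on a linear scale that had been set to a common mean. Median signals were 11.6 and 11.3 on the arrays of S2/S2-NDCterm and 12.4, 11.97 and 10.98 on those of S2-NFull/S2. The arrays of a further 3 titles disagreed with their partners in Delta. The signals were 11382 against 13.9 in S2-NDCterm/S2-Dl replicate 2, 12295 against 156 in S2-NFull/S2-DlDI replicate 1 and 11031 against 1.67 in replicate 3. The label of at least 1 array in each pair is thus in doubt. The signal of 156 lay between the levels with and without Dl cells given below. All 6 arrays were left out. The sample titled S2/S2 replicate 3 bears the same number in its description as replicate 2, and the title was followed. In the arrays used, Delta was at 11070 or above in every mix with Dl cells, S2-NFull/S2-Dl included at 12132, and at 41.3 or below in the rest. Array medians over the series ran from 9.85 to 14.2, except in S2/S2 replicate 2 at 21.0. Over the better expressed probe sets, the SD of the log2 difference was 0.228 between the S2/S2-NDCterm replicates, 0.339 between the paired arrays of S2-NFull/S2 replicate 1, 0.276 to 0.360 between either of these and replicate 3, and 0.354 to 0.478 between arrays of the 2 mixes. The paired arrays thus differed from each other about as much as arrays of different replicates did. The ratio of 3' to 5' signal of actin, a sign of RNA integrity, was 2.38 and 1.87 in S2/S2-NDCterm against 2.48, 3.93 and 2.68 in S2-NFull/S2, so that both values of the first mix lay below all 3 of the second. For GAPDH the ratios were 2.41 and 1.87 against 2.06, 2.86 and 2.51, and overlapped. Those of eIF-4a were 4.72 and 3.30 against 4.39, 8.26 and 5.05, and overlapped too. Array 2 of S2-NFull/S2 replicate 1, one of the averaged pair, had the highest ratio of its mix for each of these genes. The part of RNA quality in the results was not tested. As markers of the plasmatocyte, the phagocytic blood cell, 11 genes had a median signal of 424 in S2/S2-NDCterm and 311 in S2-NFull/S2, among them srp, a GATA factor of blood cells, at 825 against 751, while Hml, another blood cell marker, stood at only 21.1 against 17.3.

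In S2/S2-NDCterm, 51 of 18769 probe sets were higher than in S2-NFull/S2 (0.272% of those tested) and 76 were lower (0.405%), at a limma adjusted p below 0.05 after the Benjamini-Hochberg correction over all probe sets. Differences are given throughout as log2(signal + 32) of S2/S2-NDCterm minus that of S2-NFull/S2, with the standard error of limma's fit (SE), and a change that starts or ends below a signal of 32 is understated. The higher probe sets stood for 43 genes and the lower ones for 63. In all 127 the samples of the 2 mixes did not overlap, which adds no support to the calls. With 2 samples against 2, the mixes also separated in many genes that were not called. Lists made up almost wholly of uncalled genes show this, with 35 of 69 mitochondrial ribosomal protein genes and 39 of 104 cuticle protein genes not overlapping. The share of all probe sets that did not overlap is not given here, so these counts are not a result about either list. The median difference was 1.03 among the higher and -1.18 among the lower, and 28 and 44 of them exceeded 1 in size. In 30 of the 76 lower probe sets the mean in S2/S2-NDCterm was under 32, whereas the lower mean was under 32 in 9 of the 51 higher ones. Such low signals were common on these arrays and are not particular to either set. The median signals of all probe sets, 11.6 and 11.3 in S2/S2-NDCterm, were themselves under 32. Leaving out 1 sample at a time changed these counts most when S2/S2-NDCterm replicate 1 was left out (6 higher and 21 lower) or S2-NFull/S2 replicate 1 (7 and 18); they were 11 and 24 without S2/S2-NDCterm replicate 3 and 17 and 33 without S2-NFull/S2 replicate 3. Of the 127 calls, 4 higher and 18 lower ones passed in all 4 of these repeats.

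**Figure D1:**
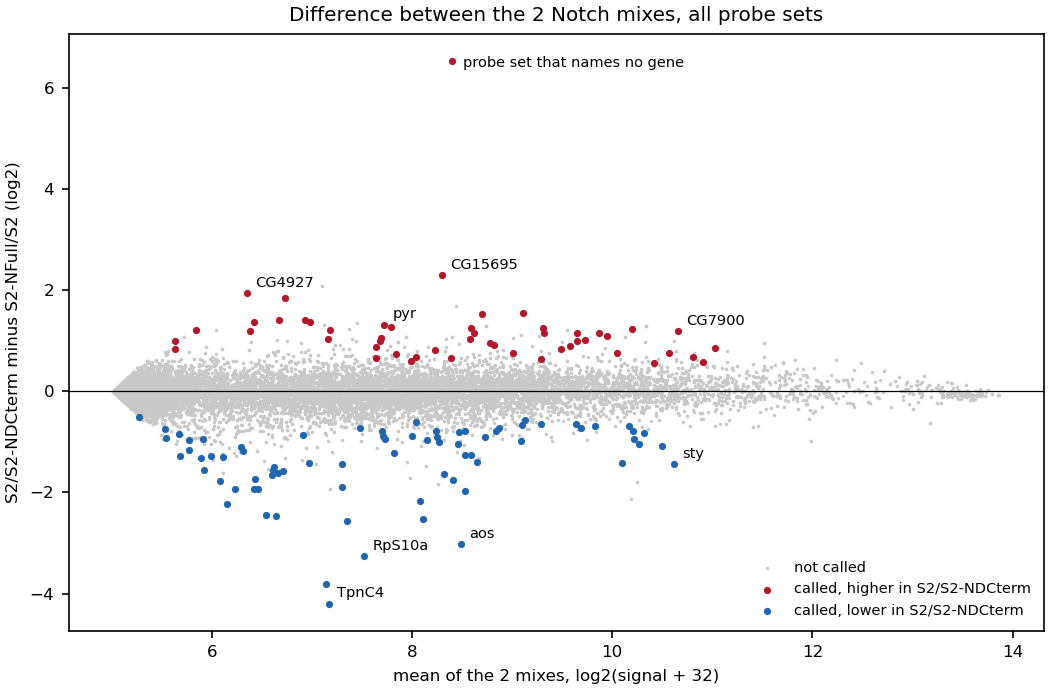
Difference between the mixes S2/S2-NDCterm and S2-NFull/S2 on the vertical axis against the mean of both on the horizontal axis, each in log2(signal + 32), for 18769 probe sets, with the 51 called higher in red and the 76 called lower in blue. A probe set that names no gene stands alone at a difference of 6.53, and TpnC4 lies lowest at -4.20.

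The genes aos and sty, which encode inhibitors of receptor tyrosine kinase signalling, were among those that fell in S2/S2-NDCterm. The secreted EGFR inhibitor argos (aos) gave signals of 135 and 63.5 in S2/S2-NDCterm, compared with 1190, 688 and 1087 in S2-NFull/S2, against 12.5, 57.5 and 77.0 in S2/S2. The S2-NFull/S2 samples were thus high, while S2/S2-NDCterm lay near or somewhat above S2/S2. The difference between the 2 lines was -3.02 ± 0.38 (limma adjusted p = 0.0012). Sprouty (sty), an intracellular inhibitor of the same class of receptors, gave 940.2 and 903 in S2/S2-NDCterm, compared with 3263, 2502 and 2281 in S2-NFull/S2, against 669, 764 and 867 in S2/S2. Here, unlike for aos, both S2/S2-NDCterm values lay a little above all S2/S2 values, and they were far below those of S2-NFull/S2. The sty difference was -1.44 ± 0.16 (limma adjusted p = 0.000341), and a second sty probe set differed by -1.42 (limma adjusted p = 0.00732). Both aos and the first sty probe set kept their calls in every repeat with 1 sample left out, whereas the second sty probe set lost its call without S2-NFull/S2 replicate 1 or without S2/S2-NDCterm replicate 3 (limma adjusted p up to 0.158). Of the 22 genes listed for EGFR and Ras, 15 were measured, and besides these 2 that fell none was called; over all 11982 named genes, 0.509% were called lower and 0.351% higher, which is the background for this and each later count over a gene list. The median of the 15 was -0.16, with 4 positive and 11 negative, against a median of -0.0036 over all probe sets. Spi, an EGFR ligand, had mean signals of 1796 in S2/S2-NDCterm and 2027 in S2-NFull/S2 (difference -0.17, limma adjusted p = 0.889). Of the same list, kek1 had mean signals of 110.6 against 108.8 (0.01, limma adjusted p = 0.999). Egfr itself was near the bottom of the scale in both mixes, at 3.98 against 7.25.

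The 2 largest falls of named transcripts were of a muscle gene and of an RNA-binding protein gene. TpnC4, which encodes a troponin C of flight muscle, gave 0.631 and 2.46 in S2/S2-NDCterm, compared with 690.3, 620.5 and 520.4 in S2-NFull/S2, against 14.8, 3.19 and 0.8 in S2/S2. It was at the bottom of the scale in S2/S2-NDCterm and S2/S2 and well expressed in all 3 arrays of S2-NFull/S2. The difference was -4.20 ± 0.22 (limma adjusted p = 6.57e-08), and it was -5.96 with an offset of 8 and -2.46 with an offset larger than 32, since S2/S2-NDCterm lies below each of them. The 6 other measured muscle markers were not called in either direction, and their summed signal was 36.3 to 41.9 in S2/S2-NDCterm and 33.7 to 62.1 in S2-NFull/S2, the highest mean of a member being 19.9. Imp, which encodes an IGF-II mRNA-binding protein and is named here after its values were seen, gave 1.19 and 10.8 in S2/S2-NDCterm, compared with 666, 552 and 402 in S2-NFull/S2 on 1 probe set (-3.80 ± 0.19, limma adjusted p = 6.57e-08). A second Imp probe set showed the same order with 0.143 and 1.43 against 173, 147 and 91.0 (-2.23 ± 0.23, limma adjusted p = 0.00023). The 2 other Imp probe sets disagreed with these, since 1 of them gave 977 and 914 against 947, 626 and 653 (0.40, limma adjusted p = 0.511) and the other 13.3 and 20.4 against 6.08, 27.0 and 12.3 (0.09, limma adjusted p = 0.999). Imp is therefore described by probe set and not as 1 gene.

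RpS10a, which encodes a protein of the small ribosomal subunit, fell with 26.9 and 27.9 in S2/S2-NDCterm against 482, 550.4 and 556 in S2-NFull/S2. The mix S2/S2 lay between them with 88.9, 65.5 and 44.8, closer to S2/S2-NDCterm. The difference was -3.26 ± 0.20 (limma adjusted p = 5.94e-07). It was the only called one of 35 measured cytoplasmic ribosomal protein genes, whose median was -0.05 (0.509% of all named genes were called lower). Among 69 mitochondrial ribosomal protein genes, mRpL14 alone was called: it fell to 869.8 and 883 in S2/S2-NDCterm, against 1355, 1564 and 1387 in S2-NFull/S2 (-0.68 ± 0.14, limma adjusted p = 0.0458), and it lost that call without any 1 of the 4 samples (up to 0.394). Here S2/S2, with 1563, 1799 and 1439, stood with S2-NFull/S2. RpS10a kept its call in all 4 repeats.

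The other large falls were mainly of genes known only by CG numbers, to which no role is given here. CG14932 gave 26.5 and 44.6 in S2/S2-NDCterm, compared with 341, 449 and 339 in S2-NFull/S2 (-2.57 ± 0.21, limma adjusted p = 1.62e-05). CG43064 gave 7.71 and 7.65 against 211, 221 and 158.5 (-2.45 ± 0.23, limma adjusted p = 0.000114). CG8349 gave 15.1 and 5.87 against 198, 245 and 186 (-2.47 ± 0.25, limma adjusted p = 0.00023). In each of these 3, the 2 mixes were separated by a wide gap, and S2/S2 lay with S2/S2-NDCterm at no more than 49.8. CG12493, with 169 and 142 against 808, 661 and 663, differed by -1.96 (limma adjusted p = 0.00023), and CG6972, with 7.10 and 2.06 against 89.7, 77.5 and 103, by -1.78 (limma adjusted p = 0.000437). These 5 genes kept their calls whichever sample was left out. CG15818 (-1.93), CG12926 (-1.73), CG31642 (-1.65), CG8292 (-1.64) and CG8353 (-2.17) were called as well but lost the call in 2 to 4 of the repeats, each of them without S2-NFull/S2 replicate 1 and without S2/S2-NDCterm replicate 1, with a limma adjusted p up to 0.438 for CG8353.

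A pair of genes with known relatives or products completed the list of large falls. The zinc-finger factor ovo, which acts in the female germline and in epidermal denticle formation, gave 15.9 and 10.9 in S2/S2-NDCterm, compared with 132, 146 and 141 in S2-NFull/S2, against 33.4, 19.9 and 34.6 in S2/S2. All 3 S2-NFull/S2 arrays were above every other value quoted, and the difference was -1.92 ± 0.20 (limma adjusted p = 0.000261). It was the only called one of 11 epidermal markers; the summed signal of the other 10 was 83.8 to 110.7 in S2/S2-NDCterm and 73.9 to 102.6 in S2-NFull/S2. Mov10, named after an RNA helicase of vertebrates, gave 7.71 and 16.8 against 186, 140.2 and 113, with S2/S2 at 57.6, 24.8 and 19.0. Its difference was -1.93 ± 0.25 (limma adjusted p = 0.00157), and the call was lost without S2-NFull/S2 replicate 1 (0.0569).

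**Figure D2:**
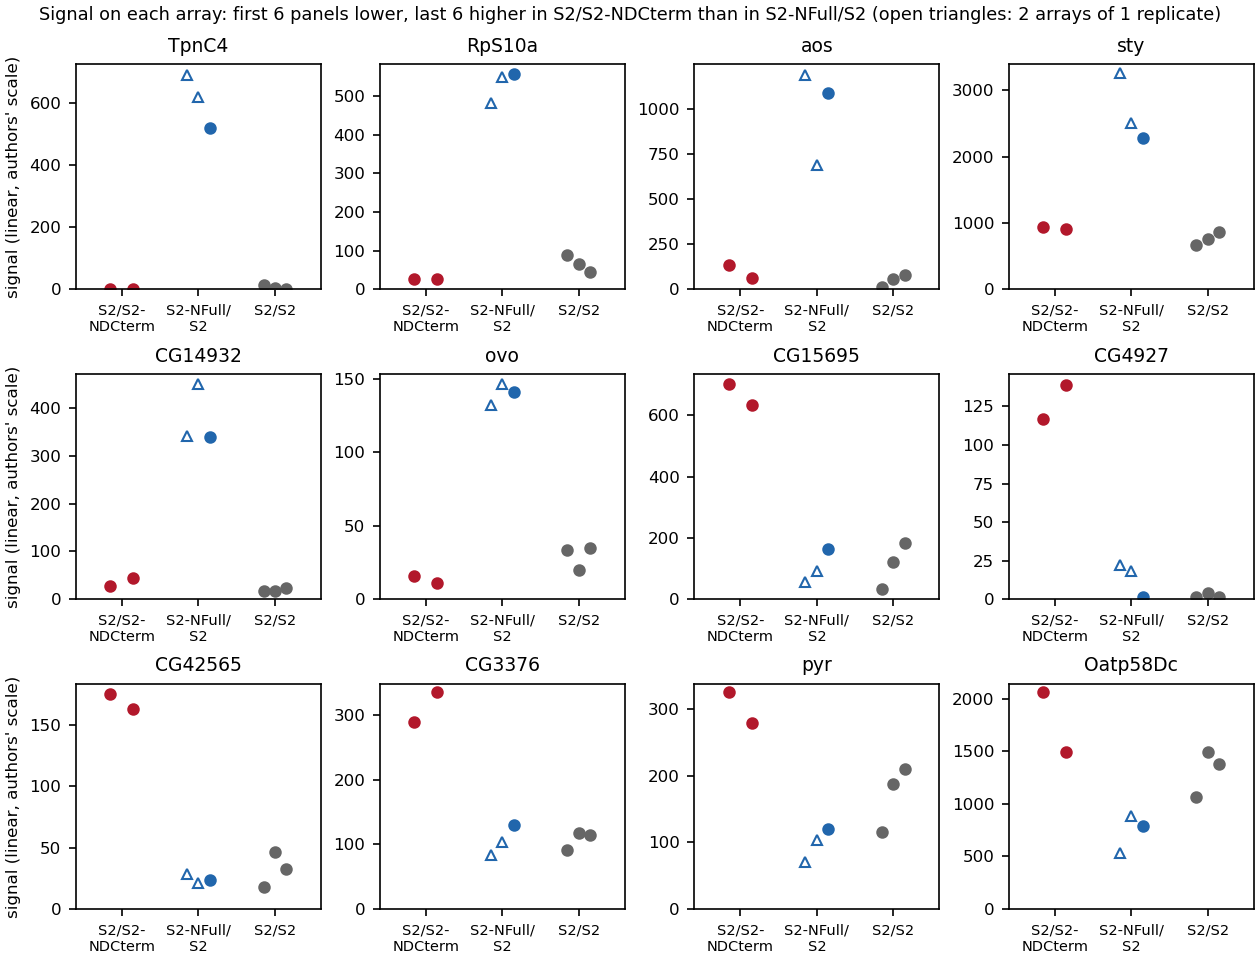
Signal on a linear axis from 0 in each array of S2/S2-NDCterm (red), S2-NFull/S2 (blue, with open triangles for the paired arrays of replicate 1) and S2/S2 (grey) for 12 genes, the first 6 lower and the last 6 higher in S2/S2-NDCterm. TpnC4, RpS10a and aos stand high in the S2-NFull/S2 arrays alone, and CG4927 and CG42565 in the S2/S2-NDCterm arrays alone.

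Genes that rose in S2/S2-NDCterm included a growth factor and a receptor gene. Pyramus (pyr), which encodes a fibroblast growth factor for the receptor Heartless, gave 325 and 280 in S2/S2-NDCterm, compared with 70.1, 103 and 121 in S2-NFull/S2, against 116, 187 and 210 in S2/S2. The S2/S2-NDCterm replicates lay above and the S2-NFull/S2 arrays mostly below S2/S2. The difference was 1.32 ± 0.24 (limma adjusted p = 0.0199), but the call was lost without any 1 of the 4 samples (up to 0.313). Wengen (wgn), a receptor for the tumour necrosis factor Eiger, gave 1355 and 1026 in S2/S2-NDCterm, compared with 509.7, 571 and 591 in S2-NFull/S2, against 642, 693 and 821 in S2/S2. The 3 mixes thus lay in the same order as for pyr, here with no overlap, at a difference of 1.02 ± 0.15 (limma adjusted p = 0.0056), which was not called without S2-NFull/S2 replicate 1 or S2/S2-NDCterm replicate 1 (up to 0.116). It was the only 1 of 13 measured genes of the JNK pathway to be called (0.351% of all named genes were called higher), and puc, a phosphatase that is a target of JNK, had mean signals of 2961 in S2/S2-NDCterm and 1690 in S2-NFull/S2 (0.80, limma adjusted p = 0.392).

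Oatp58Dc, dmGlut and GstD3 were also higher. Oatp58Dc, an organic anion transporter, gave 2064 and 1494 in S2/S2-NDCterm, compared with 534, 883 and 785 in S2-NFull/S2, and S2/S2 lay mostly between with 1064, 1495 and 1379. The difference was 1.22 ± 0.20 (limma adjusted p = 0.0108). The gene dmGlut, named as a glutamate transporter, gave 964 and 924.5 against 297, 341 and 452, with S2/S2 again between at 435, 539 and 645 (1.25 ± 0.23, limma adjusted p = 0.0178). GstD3, a glutathione S-transferase of the delta class, gave 1071 and 1258 against 487, 405 and 576.5, and S2/S2 lay between at 679, 589 and 778 (1.15 ± 0.18, limma adjusted p = 0.00732). In all of these 3 genes the 2 Notch mixes departed from S2/S2 in opposite directions on average, and each lost its call in 3 of the 4 repeats, among them those without S2-NFull/S2 replicate 1 and without S2/S2-NDCterm replicate 1 (up to 0.313). GstD3 was the only called gene of 15 measured for metallothioneins and oxidative stress; MtnA, a metallothionein, had mean signals of 526 in S2/S2-NDCterm and 3085 in S2-NFull/S2 (-2.13, limma adjusted p = 0.471). The gene mthl2, of the methuselah-like family of G protein-coupled receptors, gave 94.3 and 119 against 30.8, 9.31 and 23.7 (1.37 ± 0.24, limma adjusted p = 0.0145) and lost the call without any 1 sample (up to 0.225).

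The remaining large rises were of genes without a name beyond a CG number. CG15695 gave 701.5 and 635 in S2/S2-NDCterm, compared with 56.0, 91.2 and 163 in S2-NFull/S2, and S2/S2 overlapped the second mix with 31.9, 120.1 and 182. Its difference of 2.30 ± 0.46 (limma adjusted p = 0.0377) had the widest error among the 15 named rises and was lost without any 1 sample (up to 0.456). CG4927 gave 117 and 139 against 22.0, 18.1 and 1.63 (1.93 ± 0.26, limma adjusted p = 0.00208) and was lost without S2/S2-NDCterm replicate 3 (0.0518). CG42565 gave 176 and 163 against 28.3, 21.5 and 23.6 (1.84 ± 0.26, limma adjusted p = 0.00305), while a second probe set of the gene did not differ beyond the spread (0.10, limma adjusted p = 0.984). It lost the call without S2-NFull/S2 replicate 1 or S2/S2-NDCterm replicate 1 (up to 0.0692). CG3376, with 289.5 and 336 against 83.8, 104 and 131 (1.27 ± 0.16, limma adjusted p = 0.00133), and CG7900, with 2556 and 2253 against 933, 1105 and 1057 (1.19 ± 0.14, limma adjusted p = 0.000775), kept their calls whichever sample was left out. The others, CG14629 (1.55), CG4259 (1.52), CG31337 (1.41), CG13692 (1.40), CG4250 (1.37), CG30269 (1.22) and CG30273 (1.19), lost the call in 3 or 4 of the repeats, always including those without S2-NFull/S2 replicate 1, without S2/S2-NDCterm replicate 1 and without S2/S2-NDCterm replicate 3 (up to 0.286).

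By far the largest difference was on a probe set that names no gene, singled out after its values were seen. It gave 3408 and 3046 in S2/S2-NDCterm, compared with 10.4, 1.63 and 0.893 in S2-NFull/S2, against 0.78, 9.37 and 1.02 in S2/S2. The difference was 6.53 ± 0.18 (limma adjusted p = 3.15e-11), and it was called in all repeats with 1 sample left out. This probe set was also high in every mix that held a Delta or DlDI line, with 4459 and 3911 in S2-NDCterm/S2-Dl, 1923 in S2-NFull/S2-Dl, 2144 and 2243 on the paired arrays of S2-NFull/S2-DlDI replicate 2, 1451, 1576 and 1155 in S2/S2-Dl, and 2575 and 1852 in S2/S2-DlDI. It was therefore near the bottom of the scale only in S2-NFull/S2 and S2/S2 among the mixes measured.

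Genes of the E(spl) complex and of the Bearded family were compared next, as the usual targets of Notch. Of 16 listed, 14 were measured, and 1 was called higher, against 0.351% of all named genes. This gene, Kaz-m1, lies in the E(spl) complex, was formerly called E(spl)m1 and encodes a protein with a Kazal-type protease inhibitor domain. It gave 34.1 and 42.4 in S2/S2-NDCterm, compared with 1.29, 6.28 and 2.65 in S2-NFull/S2 (1.00 ± 0.19, limma adjusted p = 0.0259). These are low signals, and the call was lost without any 1 of the 4 samples, with an offset of 8 and in a fit to the 2 mixes alone (limma adjusted p up to 0.237). Over the 14 genes, 8 differences were positive and 6 negative, and their median was 0.12.

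The bHLH repressor gene E(spl)m3-HLH, like E(spl)mbeta-HLH, was above its S2/S2 level in both Notch mixes. E(spl)m3-HLH gave 1314 and 1241 in S2/S2-NDCterm, compared with 625, 771 and 686 in S2-NFull/S2, against 129, 265 and 244 in S2/S2. Both Notch mixes lay above S2/S2, and S2/S2-NDCterm lay above S2-NFull/S2 without overlap. The difference between the 2 lines, 0.86 ± 0.23, did not pass (limma adjusted p = 0.157, between 0.0167 and 0.616 over the alternatives). Against S2/S2 the gene was called in both, at 2.47 in S2/S2-NDCterm (limma adjusted p = 7.27e-05) and at 1.61 in S2-NFull/S2 (limma adjusted p = 0.00142). E(spl)mbeta-HLH gave 786 and 626 in S2/S2-NDCterm, compared with 768.5, 661 and 703 in S2-NFull/S2, which overlapped, against 301, 294 and 291 in S2/S2. The 2 lines differed by -0.01 ± 0.13 (limma adjusted p = 0.999), while the differences from S2/S2 were 1.16 in S2/S2-NDCterm (limma adjusted p = 0.00061) and 1.18 in S2-NFull/S2 (limma adjusted p = 0.000129). Beside Dl cells, E(spl)m3-HLH gave 1390 and 1309 in S2-NDCterm/S2-Dl against 952 in S2-NFull/S2-Dl (0.49, limma adjusted p = 0.621), and E(spl)mbeta-HLH gave 812 and 728 against 959.5 (-0.31, limma adjusted p = 0.56), so that neither was called between the lines there.

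The other members were weakly expressed. The Bearded-family gene E(spl)malpha-BFM gave 93.0 and 59.7 in S2/S2-NDCterm, compared with 105, 146.5 and 112 in S2-NFull/S2, against 39.6, 37.5 and 66.8 in S2/S2. It was called above S2/S2 in S2-NFull/S2 (0.93, limma adjusted p = 0.0462) and not in S2/S2-NDCterm (0.44, limma adjusted p = 0.455), and the 2 lines did not differ beyond the spread (-0.49 ± 0.21, limma adjusted p = 0.512). E(spl)m2-BFM gave 62.2 and 89.4 against 58.5, 64.03 and 35.8, and E(spl)mdelta-HLH gave 32.6 and 19.5 against 11.5, 11.6 and 14.8. Neither was called, at 0.43 for the first (limma adjusted p = 0.694) and 0.35 for the second (limma adjusted p = 0.646). Signals of m4, m5, m6, m7, Brd, Tom, BobA and Ocho stayed at 16.4 or less in both mixes, and their differences ran from -0.20 to 0.24 without a call. Delta, the ligand, was likewise near the bottom of the scale in this comparison, with 14.4 and 17.1 in S2/S2-NDCterm, compared with 6.596, 18.4 and 3.35 in S2-NFull/S2 (0.27, limma adjusted p = 0.752).

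**Figure D3:**
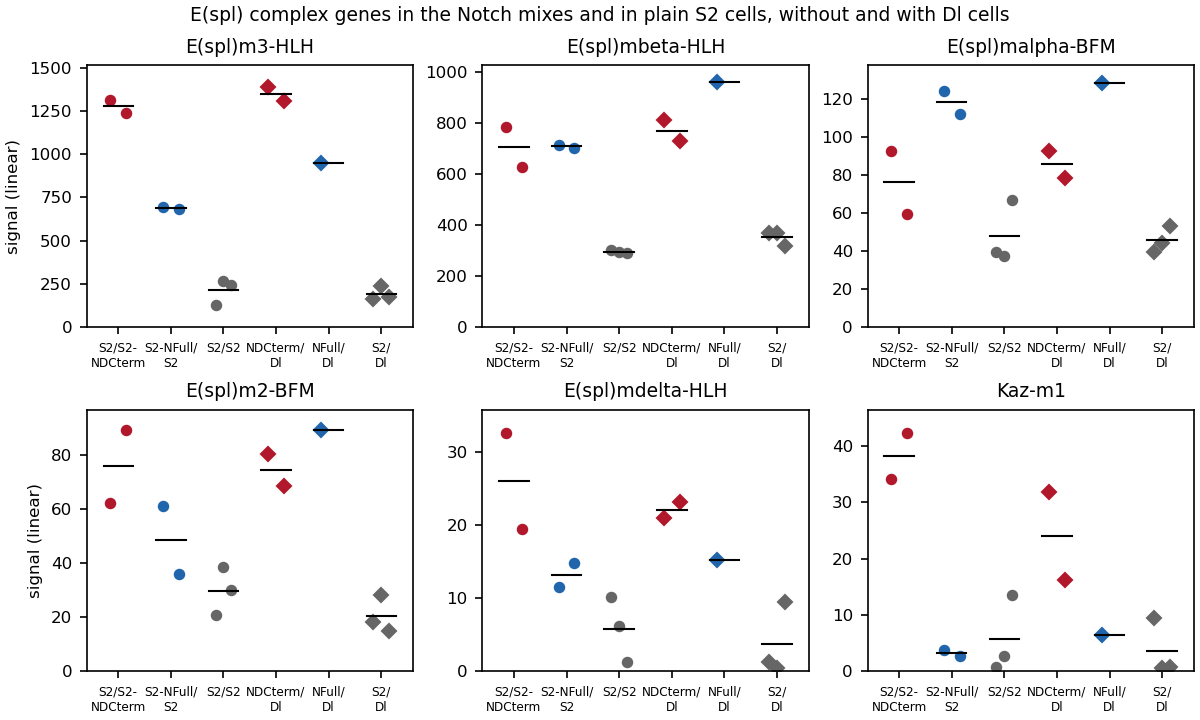
Signal on a linear axis of 6 genes of the E(spl) complex in each sample of S2/S2-NDCterm, S2-NFull/S2 and S2/S2 (circles) and of the same lines beside Dl cells (diamonds), with a line at each mean and the paired arrays averaged. E(spl)m3-HLH as well as E(spl)mbeta-HLH lie above S2/S2 in both Notch mixes, and Kaz-m1 reaches no more than 42.4.

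Each mix was then set against S2/S2, which serves both comparisons, and each of the 2 Notch mixes also enters the comparison above, so that the values stand side by side without a measure of agreement. In S2/S2-NDCterm minus S2/S2, 39 probe sets were called (0.208%), 34 higher and 5 lower. In S2-NFull/S2 minus S2/S2, 116 were called (0.618%), 106 higher and 10 lower. The first count fell to 7 without S2/S2-NDCterm replicate 1 and 6 without replicate 3, and rose to 88 without S2/S2 replicate 3, whose number is given differently by title and description; the second was 34 without S2-NFull/S2 replicate 1 and 56 without replicate 3. Among the 76 probe sets lower in S2/S2-NDCterm than in S2-NFull/S2, the median difference from S2/S2 was -0.14 for S2/S2-NDCterm and 1.00 for S2-NFull/S2. Among the 51 higher ones, the medians were 0.61 for S2/S2-NDCterm and -0.27 for S2-NFull/S2.

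Named genes lay differently in these values. For TpnC4, RpS10a and aos, the differences of S2/S2-NDCterm from S2/S2 were -0.17, -0.70 and 0.74 (limma adjusted p = 0.785, 0.168 and 0.484), and those of S2-NFull/S2 were 4.03, 2.55 and 3.76 (3.31e-08, 3.76e-06 and 4.45e-05). The distance between the lines thus lay mostly on the side of S2-NFull/S2. For CG4927, CG42565 and CG3376, S2/S2-NDCterm differed from S2/S2 by 2.23, 1.67 and 1.31 (limma adjusted p = 0.00061, 0.00692 and 0.000923), and S2-NFull/S2 by 0.30, -0.17 and 0.04 (0.755, 0.87 and 0.96), so that here the distance lay on the side of S2/S2-NDCterm. For pyr, wgn and CG7900 it was divided between both sides: the differences were 0.75, 0.70 and 0.42 in S2/S2-NDCterm (limma adjusted p = 0.255, 0.0689 and 0.269) and -0.57, -0.32 and -0.76 in S2-NFull/S2 (0.419, 0.5 and 0.0101), of which the last alone was called.

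**Figure D4:**
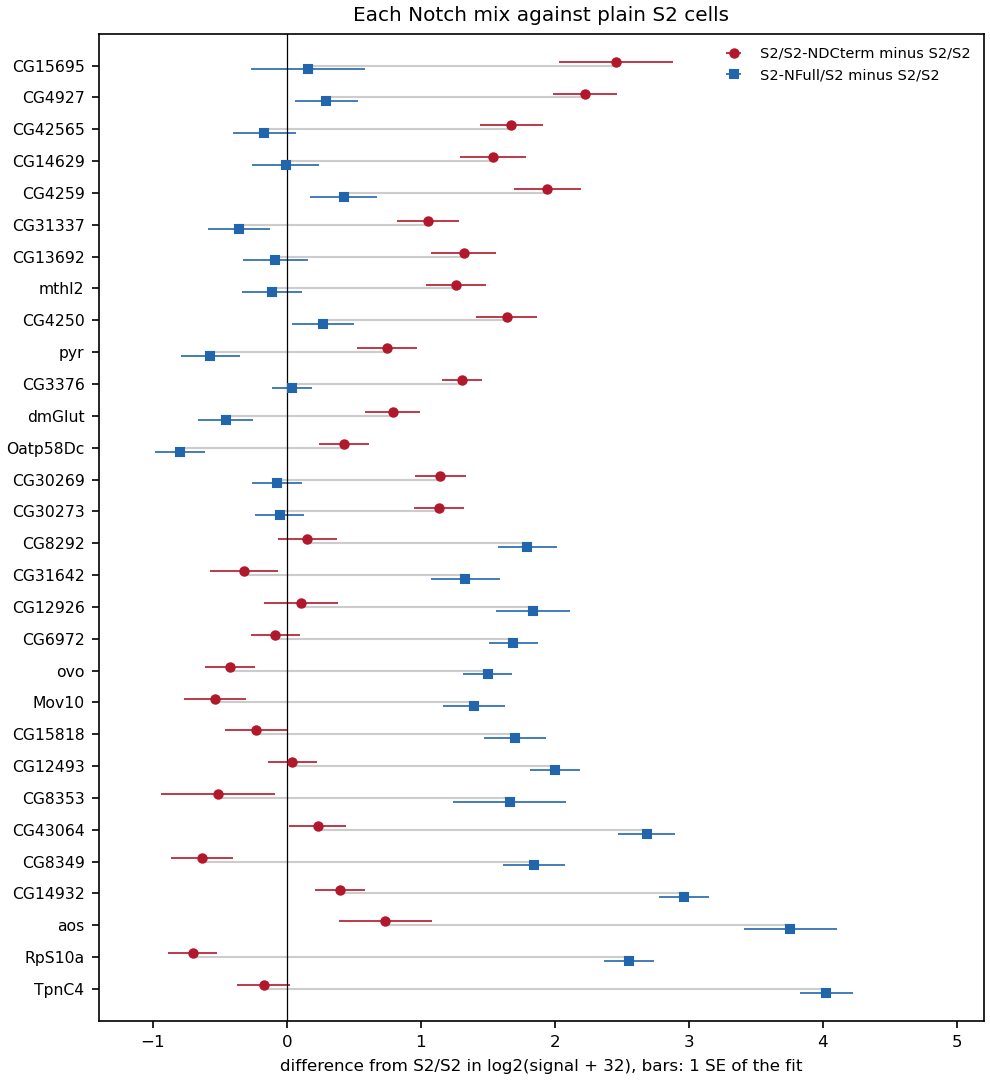
Differences of S2/S2-NDCterm from S2/S2 (red circles) and of S2-NFull/S2 from S2/S2 (blue squares) in log2(signal + 32), with bars of 1 SE, for the 15 largest named rises (top) and 15 largest falls (bottom); both colours use the same S2/S2 samples. In the falls the blue squares lie between 1.33 and 4.03, while the red circles lie between -0.70 and 0.74.

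The same 2 lines were also mixed with Delta-expressing cells, which gave a comparison in other samples: S2-NDCterm/S2-Dl (2 samples) minus S2-NFull/S2-Dl (1 sample, whose spread is assumed to be that of the other mixes). It shares no array with the comparison beside S2 cells, although it uses the same lines and the same estimate of the spread. There, 76 of 18769 probe sets were called (0.405%), 37 higher and 39 lower, and 16 were left without either S2-NDCterm/S2-Dl replicate. Of the 127 calls made beside S2 cells, 126 had the same sign beside Delta cells, against 60.6% of all probe sets with the same sign in both comparisons. The exception was CG13692, with 356 and 350.4 in S2-NDCterm/S2-Dl against 377 in S2-NFull/S2-Dl (-0.09, limma adjusted p = 0.998). The called sets had 42 probe sets in common, 33.1% of the calls beside S2 cells and 55.3% of those beside Delta cells. The median difference beside Delta was 0.92 for the 51 higher probe sets and -0.94 for the 76 lower ones.

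Among the falls, RpS10a was called again, with 34.8 and 40.9 in S2-NDCterm/S2-Dl against 435 in S2-NFull/S2-Dl (-2.74, limma adjusted p = 8.87e-05). So were CG43064 (-2.42, limma adjusted p = 0.00103), CG14932 (-2.05, 0.00158), CG6972 (-1.98, 0.00158), CG8349 (-1.87, 0.0182) and CG31642 (-1.70, 0.0488). For aos the signals were 167 and 96.5 against 666 (-2.13, limma adjusted p = 0.0735), and for sty 1599 and 1736 against 3002 (-0.84, limma adjusted p = 0.0855), which kept the order of the mixes without a call. Beside Delta, TpnC4 differed by -1.91 (limma adjusted p = 0.00477), with 297 and 276 in S2-NDCterm/S2-Dl against 1162 in S2-NFull/S2-Dl, and was not at the bottom of the scale in either. In S2/S2-Dl, which holds no Notch line, TpnC4 gave 408, 464 and 294. Sty gave 1408, 1703 and 1720 there, near S2-NDCterm/S2-Dl and above its 669, 764 and 867 in S2/S2.

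Several further falls shared this feature of a signal in S2/S2-Dl well above that in S2/S2. Ovo gave 130 and 164 in S2-NDCterm/S2-Dl and 278 in S2-NFull/S2-Dl, with 153.5, 130.2 and 184 in S2/S2-Dl (-0.80, limma adjusted p = 0.211). CG12493 gave 1943 and 1965 against 2950, with 1999, 2178 and 1668 in S2/S2-Dl (-0.59, limma adjusted p = 0.402). For Mov10 the values were 88.5 and 96.7 against 251, with 135.5, 159 and 118 in S2/S2-Dl (-1.18, limma adjusted p = 0.129). In these 3 genes S2-NFull/S2-Dl was the highest of the 3 mixes with Dl cells, and none of the differences between the lines was called there.

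Among the rises, CG42565 (2.13, limma adjusted p = 0.00741), CG4250 (2.15, 0.00554), CG30269 (1.93, 0.00285), pyr (1.55, 0.039) and wgn (0.98, 0.039) were called beside Delta as well. Signals of pyr were 166 and 163 in S2-NDCterm/S2-Dl against 35.2 in S2-NFull/S2-Dl. The largest differences there were of CG7900, with 1645 and 1516 against 17.3 (5.03, limma adjusted p = 6.33e-10), and of Oatp58Dc, with 955 and 806 against 10.3 (4.42, limma adjusted p = 3.35e-07). Both genes were well expressed in S2-NFull/S2 and at the bottom of the scale in the single S2-NFull/S2-Dl sample. CG15784 (5278 and 5277 against 328, difference 3.88, limma adjusted p = 0.000217) and Esp (230.5 and 212 against 1.82, difference 2.90, limma adjusted p = 0.0409), were called beside Delta but not beside S2 cells, where they differed by 0.40 (limma adjusted p = 0.848) and 2.09 (limma adjusted p = 0.0598). The change of the line difference with the partner cells was tested directly, and 7 of 18769 probe sets passed (0.0373%); among the 36 named genes called beside S2 cells these were CG7900, Oatp58Dc and TpnC4. CG15784 passed as well (limma adjusted p = 0.0149), and Esp did not (limma adjusted p = 1.0), so that no difference between the partner cells was shown for it.

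**Figure D5:**
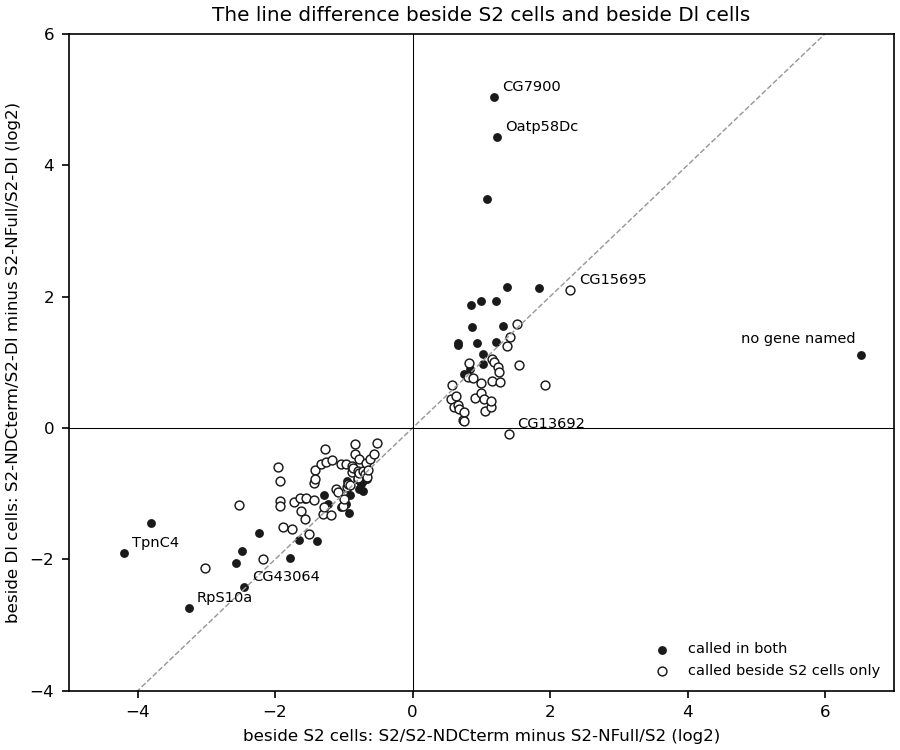
Difference between the NDCterm and NFull lines beside Dl cells (vertical axis) against that beside S2 cells (horizontal axis), in log2(signal + 32), for the 127 probe sets called beside S2 cells, filled where also called beside Dl cells; the dashed line marks equal differences. All but CG13692 lie in the quadrants of equal sign, and CG7900 and Oatp58Dc stand highest at 5.03 and 4.42 beside Dl cells.

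Apart from the lists already described, none of the 23 other lists of a pathway or machinery held a gene called by limma. The Notch pathway list (29 of 34 measured) had a median of 0.12, with 19 positive and 10 negative, and 2 of its genes were under an unadjusted p of 0.05. Of 15 other known Notch targets, 10 were measured, 2 of them under that unadjusted p. Cut (ct), a homeodomain factor, was lowest at -0.71 (limma adjusted p = 0.0519), and klumpfuss (klu), a zinc-finger factor, was highest at 0.80 (limma adjusted p = 0.124). Blood lineage factors were positive in 12 of 12, with a median of 0.13 and 2 under the unadjusted p. Toll and Imd regulators were positive in 16 of 20, with a median of 0.22 and 3 under it. Glycolysis genes were negative in 9 of 10, with a median of -0.30 and 0 under it. In the same comparison 48.7% of all 11982 named genes were positive, and the sign of a list was not tested. The share of all named genes under the unadjusted p is not given here. The counts under it are therefore not a result about any list. Markers of neurons (7 measured), glia (5), fat body (4) and germline (6) held 0 genes called by limma and 0 under the unadjusted p. Pxn, the peroxidasin of blood cells, was the plasmatocyte marker with the largest difference, at 1773 in S2/S2-NDCterm against 887 in S2-NFull/S2 (0.98, limma adjusted p = 0.38).

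Called genes were also placed in the RefSeq gene order of D. melanogaster (assembly Release 6 plus ISO1 MT). Of 105 called genes with a place, 10 neighbouring pairs had at most 2 coding genes between them, and 9 of these pairs moved in the same direction. Most of the pairs are links of the same rows on 2L and 2R described next, so they are not separate units. How many pairs, and how many of like direction, randomly placed genes would form was not worked out. On chromosome 2L, CG8372 (-0.80), CG8353 (-2.17), CG8349 (-2.47) and CG8292 (-1.64) stood in a row, with CG8360 between the first 2 at -0.38 (limma adjusted p = 0.383). The genes next to the row were not called, with Ssb-c31a at -0.56 (limma adjusted p = 0.117) and Snx6 at 0.07 (limma adjusted p = 0.997). On 2R, CG42565 (1.84), CG4250 (1.37), CG30269 (1.22) and CG30273 (1.19) formed a row of rises, with CG42566 and CG42867 between them not measured. CG6421 (-0.75) and CG6429 (-1.29) were adjacent on the same arm, and on 3R CG7900 and CG7878 (0.67) flanked puc, and Synd (0.76), a membrane-bending syndapin, lay beside CG15695 (2.30). The pair on X was opposed, with wgn at 1.02 and Rip11, a Rab11-binding protein, at -0.65. This is a description of position, and probe sets that share sequence were not examined.

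Further called genes with known products are given here outside the naming rule, chosen after their values were seen. Ten-m, a teneurin that spans the cell membrane, gave 216 and 220.0 in S2/S2-NDCterm against 634, 590 and 523.5 in S2-NFull/S2 (-1.26 ± 0.16, limma adjusted p = 0.00133). With S2/S2 at 188.5, 125.8 and 141.9, the distance lay on the side of S2-NFull/S2. Ten-m also gave 929, 1019 and 815 in S2/S2-Dl, and the lines differed by -0.52 beside Delta cells. Poxn, a paired-box factor of sense organs, gave 2.59 and 4.33 against 87.8, 85.9 and 58.6 (-1.55 ± 0.19, limma adjusted p = 0.000888), with S2/S2 at 8.90, 3.10 and 11.2. Tut, an RNA-binding partner of Bam in the male germline, gave 35.3 and 23.3 against 193, 138 and 135.5 (-1.57 ± 0.17, limma adjusted p = 0.000341). Here S2/S2 lay between at 55.55, 69.35 and 62.49. These 3 genes, and the chloride channel gene Clic (-0.95, limma adjusted p = 0.000354), kept their calls whichever sample was left out. The piRNA pathway gene shu also fell; it gave 202 and 195 against 375, 381.5 and 351 (-0.78, limma adjusted p = 0.00732), and BoYb, a Tudor-domain gene, fell by 0.87 (limma adjusted p = 0.0458). Other genes of the piRNA pathway, which silences transposons, were not called: piwi differed by -0.33 (limma adjusted p = 0.871), aub by -0.20 (0.821) and AGO3 by -0.70 (0.673). The splicing regulator of sex determination tra (-1.05, limma adjusted p = 0.0059), the bicoid mRNA localisation gene exu (-0.73, 0.0357) and the tropomodulin gene tmod (-0.83, 0.00956) fell as well. Smaller rises were seen in the translation initiation factor gene eIF4G1 (0.56, limma adjusted p = 0.0398), the lamin B receptor gene LBR (0.74, 0.0405), the zinc transporter gene ZnT63C (0.89, 0.0187) and the superoxide dismutase gene Sod3 (0.83, 0.0406). Without S2-NFull/S2 replicate 1 or without S2/S2-NDCterm replicate 1, shu, BoYb, tra, exu, tmod, eIF4G1, LBR, ZnT63C and Sod3 all lost their calls, with limma adjusted p up to 0.446.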

How the data were processed

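The deposited table of each array held 1 signal per probe set, deposited by the authors as intensity and made by software not given in the sources used here. Trimming 2% at each end left a mean of 150.004 to 150.005 on all arrays, and the scaling was kept. After 183 control probe sets were left out, 18769 were tested without a filter on low values; 13647 named 1 gene. Values were turned into log2(signal + 32). With limma 3.58.1 in R 4.3.3, 1 linear model with a mean trend covered 16 samples of 8 mixes (8 residual degrees of freedom, 6.39 from the prior), and calls were made where the p adjusted after Benjamini-Hochberg was below 0.05. The procedure was tested on simulated data.

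Arrays sharing a title were averaged for S2-NFull/S2 replicate 1 and S2-NFull/S2-DlDI replicate 2; the 6 arrays of 3 other such titles, which disagreed in Delta, were left out. A p-value measures only the spread between these samples, and the number of arrays limits its precision.

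Named genes were the 15 largest called rises and falls among probe sets of 1 gene whose higher mean signal reached 64 and whose samples did not overlap, all E(spl) and Bearded-family genes, Delta, called list members and the 5 largest called genes of the other 3 comparisons. A gene with several probe sets was represented by its brightest. Members and lists were chosen with earlier results of these data known. Alternatives covered normalization, offset, filter, trend, shared titles, replicate block, the 2 mixes alone and single samples left out.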

Additional observations from a re-analysis of the deposited data

Results flagged for a closer look

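For 7 probe sets the difference between the lines itself differed between the partner cells, by a limma test of that change (beside S2 cells minus beside Dl cells, in log2(signal + 32), adjusted over all probe sets). The change was -3.84 for CG7900 (limma adjusted p = 4.89e-07), -3.20 for Oatp58Dc (0.000497), -3.48 for CG15784 (0.0149), -2.29 for TpnC4 (0.0243) and -2.36 for the brightest called probe set of Imp (0.00623). It was 5.42 for the probe set without a gene name that had the largest difference beside S2 cells (2.75e-07), and -2.40 for a second probe set without a gene name (0.00209). All 7 rest on a single S2-NFull/S2-Dl sample, in which CG7900 gave 17.3, Oatp58Dc 10.3, CG15784 328 and TpnC4 1162. In S2-NFull/S2-DlDI replicate 2 the paired arrays gave 245 and 237 for CG7900, and 1290.5 and 1303 for Oatp58Dc. They gave 6392 and 6698 for CG15784, and 632 and 615 for TpnC4. In S2/S2-Dl, which holds no Notch line, TpnC4 gave 408, 464 and 294, and the Imp probe set gave 403, 431 and 361. The probe set with the change of 5.42 gave 1451, 1576 and 1155 there. In S2/S2 none of these exceeded 14.8. The means of CG7900, Oatp58Dc, CG15784 and the probe set with -2.40 were lower in S2/S2-Dl than in S2/S2. How far signal of the Dl cells themselves enters these log2 differences was not tested.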

How the results depend on the processing

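All 127 calls between S2/S2-NDCterm and S2-NFull/S2 kept their sign under each alternative in which they were tested. With 1 sample left out no sign could turn, because the samples of the 2 mixes did not overlap. The filter, the fit without a trend, the 2 mixes alone and all shared titles averaged left each difference unchanged. No sign could turn there either. Another offset keeps the order of signals and could hardly turn one. In those settings the kept sign is no added support. In a fit to the 2 compared mixes alone, 72 of the 127 were still called. The counts of 51 higher and 76 lower became 78 and 121 with a mean signal of at least 32, 85 and 162 with the paired arrays of S2-NFull/S2 replicate 1 as separate samples, 150 and 219 with the replicate number as a block, and 6 to 17 and 18 to 33 with 1 sample left out; the lower count was 119 with all shared titles averaged. Residuals of same-numbered samples correlated at 0.06 between the 2 Notch mixes, 0.069 and 0.058 between S2/S2-NDCterm and S2/S2, and 0.47 and 0.58 between S2-NFull/S2 and S2/S2; with only 2 pairs each, the numbers were not taken to pair the samples. Other settings gave 37 to 63 higher and 64 to 86 lower. Against S2/S2, the 39 calls of S2/S2-NDCterm became 85 with the signal filter, 85 with all shared titles averaged, 417 with the block and 6 to 88 without 1 sample. The 116 of S2-NFull/S2 became 185, 247 with separate arrays, 332 with the block and 34 to 159 without 1 sample. The 76 beside Delta became 306 with all shared titles averaged, which brings in arrays of doubtful label, 337 with the block and 16 without either sample that could be left out. Uncalled E(spl) differences near 0 turned sign: E(spl)mbeta-HLH gave 0.039 with array 2 alone and -0.17 to 0.14 with 1 sample left out. In the same repeats m4 gave -0.44 to 0.030, m5 -0.035 to 0.25, m7 -0.27 to 0.080, Brd -0.17 to 0.057 and BobA -0.0095 to 0.28. The causes were not tested. With 2 samples a mix the limits are few samples and signals under 32, where probe sets have no reliable order.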
